A study of Mus musculus with 42 samples.

Results

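Fibroblasts of the joint lining and of the tissue beneath it are told apart in mouse synovium by a small set of surface and secreted proteins, and 10 such genes were followed here in cultured synovial fibroblasts. The genes were Prg4, Cd55 and Clic5 for the lining, Thy1 and Cd34 for the sublining, Fap, Pdpn and Cdh11 for synovial fibroblasts at large, and the adhesion molecules Vcam1 and Icam1. They were found as every probe set listed with 1 of these symbols and no other gene, which gave 18 of the 45101 probe sets on the array and 10 of the 18194 genes with a probe set of their own. Clic5 had 4 of them, Cd55 and Vcam1 had 3 each, Cdh11 had 2, and the other 6 genes had 1 each. 1 further probe set, 1427632_x_at, is listed with both Cd55 and its neighbouring copy Cd55b and was left out.

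The synovial membrane consists of a thin cellular lining that faces the joint fluid and a looser sublining that holds vessels, nerves and connective tissue. Lining fibroblasts secrete lubricin, the product of Prg4, which coats cartilage, and hyaluronan, the long polysaccharide that gives joint fluid its viscosity. TSG-6, the product of Tnfaip6, is a secreted hyaluronan-binding protein that many cells make under inflammatory stimuli. In arthritis both fibroblast layers expand, and adhesion molecules on their surface bind integrins of incoming leukocytes.

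The cultures came from arthritic female BALB/c mice that carried a TSG-6 (Tnfaip6) knockout or were wild-type, and every animal had been immunised with cartilage proteoglycan in the adjuvant DDA. Each array measured 1 culture, after up to 6 passages and an overnight serum starvation. The knockout-labelled arrays comprised 4 with TNFa, 4 with LPS, 3 with TSG-6, 4 with hyaluronan (HA), 4 with TSG-6 plus HA and 8 untreated cultures. The wild-type arrays comprised 2 of each treatment and 5 untreated cultures. Cells were exposed for 12 h, to TNFa at 5 ng/ml, LPS (bacterial lipopolysaccharide) at 200 ng/ml, recombinant TSG-6 at 120 ug/ml and HA at 24 ug/ml. The labels do not say how many animals gave these cultures or whether the genotypes were isolated side by side, so genotype and isolation cannot be told apart, and p-values measure only the spread between cultures.

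Values are deposited on a log2 scale with each probe set centred on its own median over the 42 arrays, called the centred value below. They therefore show differences between arrays for 1 probe set and say nothing of which gene is more abundant, nor whether a marker is present at all. Each genotype holds a pair of array sets, a and b, that the labels do not name and that were found from the data. They hold 14 and 13 knockout-labelled and 8 and 7 wild-type arrays, and each treated wild-type group has its replicate 1 in set a and its replicate 2 in set b. The split is the most common one among probe sets with a gap of at least 1 log2 unit and at least 5 arrays on each side. It was shared by 12 of 25 such probe sets in knockout-labelled and 33 of 42 in wild-type arrays. Fits with the set as a block thus use a grouping taken from the same values. The 18S ribosomal RNA probe set was above 1 on 10 knockout-labelled and 5 wild-type arrays. These were 4 of 14 arrays in set a and 6 of 13 in set b of the knockout-labelled cultures. In wild-type cultures they were 0 of 8 in set a and 5 of 7 in set b. The single Tnfaip6 probe set did not separate the genotypes. It ran from -0.41 to 0.25 in untreated knockout-labelled cultures and from -0.55 to -0.14 in untreated wild-type ones, with a difference of 0.26 ± 0.15 (SE, adjusted p = 0.229, limma). The sources used here do not say which part of the gene was removed, so the probe set cannot check the labels, and cultures labelled as knockout are called knockout-labelled throughout.

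The regulatory sequence of 5 of the 10 genes (Cd55, Cd34, Pdpn, Icam1 and Clic5) was found in RefSeq's table of promoters for GRCm38, each running from 250 bases before to 50 bases after a transcript start. For Icam1, Cd34 and Pdpn that start is the outermost one of the gene, while for Clic5 and Cd55 it lies 53.8 and 2.27 kb inside the gene, so the windows of Clic5 and Cd55 surround an inner start. A pair is shown because Icam1 and Clic5 were both higher with TNFa in the knockout-labelled cultures, as described further on. Capitals mark every match on either strand to GGNNNTTCC, a loose form of the site bound by NF-kB, the transcription factor that TNFa and LPS activate. Matches may overlap, and a stretch that matches the motif on both strands counts for each.
Icam1, chr9:21015690-21015989, plus strand: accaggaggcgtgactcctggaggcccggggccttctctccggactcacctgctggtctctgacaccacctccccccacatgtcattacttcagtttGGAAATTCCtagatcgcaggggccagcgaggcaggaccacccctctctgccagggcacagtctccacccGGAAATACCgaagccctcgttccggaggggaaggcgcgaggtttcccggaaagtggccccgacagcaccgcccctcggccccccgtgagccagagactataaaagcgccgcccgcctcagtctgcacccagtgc
Clic5, chr17:44188322-44188621, plus strand: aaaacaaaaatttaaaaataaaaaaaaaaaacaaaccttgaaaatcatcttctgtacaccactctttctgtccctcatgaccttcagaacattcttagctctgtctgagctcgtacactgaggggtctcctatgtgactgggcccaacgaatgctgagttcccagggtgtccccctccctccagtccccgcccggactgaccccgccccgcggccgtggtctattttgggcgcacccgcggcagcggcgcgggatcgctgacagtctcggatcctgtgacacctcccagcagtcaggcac
The Icam1 window holds GGAAATTCC at 153 to 145 bases before the start, matching on both strands, and GGAAATACC at 84 to 76 bases before it, matching on the minus strand. The Clic5 window, at its inner start, holds none, and the outermost Clic5 start was not searched. Cd55 holds 1 match, at 60 to 52 bases before the start, and Cd34 and Pdpn hold none. The motif occurs in 18.5% of the 32851 promoters of that table (6070 of them), so these matches describe the letters of the window and no more.

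In untreated cultures the lining gene Prg4 and both adhesion molecules were higher in knockout-labelled than in wild-type cells, while Cd55, Thy1 and Cd34 were lower (Thy1 turned round under cyclic loess scaling, given with its values). Of the 18 probe sets, 5 were higher and 5 lower at an adjusted p of 0.05 in limma, belonging to 6 of the 10 genes. The comparison called 33.8% of all 34958 probe sets tested, 17.9% as higher and 15.8% as lower, so a call is common here. The median difference over the 18 probe sets was 0.06 and over all probe sets 0.02.

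Prg4 showed the largest difference among the 10 genes. Its centred value in the 8 untreated knockout-labelled cultures ran from -0.05 to 0.35 with a median of 0.17. In the 5 wild-type cultures it was -3.97, -4.03, -3.95, -4.71 and -4.66. The groups lay more than 3 units apart with no overlap, and the fitted difference was 4.41 ± 0.18 (SE), or 21.2-fold (adjusted p = 2.37e-20, limma). Across treatments the 27 knockout-labelled arrays ranged from -0.31 to 1.39 and the 15 wild-type arrays from -4.78 to -2.35, so the lowest knockout-labelled array stood above the highest wild-type one. Within each treatment the difference was between 4.01 and 4.46, and those comparisons called 20.1% of all probe sets with TNFa, 19.9% with LPS, 15.5% with TSG-6, 19.3% with HA and 17.8% with TSG-6 plus HA.

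Cd55, which encodes decay-accelerating factor, a membrane protein that restrains complement and marks the lining, went the opposite way to Prg4. Its lead probe set 1460242_at, the one of the 3 with the largest spread over the arrays, ran from -0.58 to 0.20 with a median of -0.10 in untreated knockout-labelled cultures. The wild-type cultures read 1.91, 2.14, 1.88, 2.83 and 2.80. All wild-type values were above all knockout-labelled ones, and the difference was -2.46 ± 0.19 (adjusted p = 8.00e-13). The other probe sets gave -2.18 ± 0.21 and -1.91 ± 0.21, and the 3 followed each other closely over the 42 arrays, with Pearson r between 0.96 and 0.98. The probe set shared with Cd55b differed by -0.03 and that of Cd55b alone by -0.01, with overlapping ranges in both. Clic5, the third lining gene, encodes a chloride intracellular channel family protein tied to the actin cortex. None of its 4 probe sets separated the genotypes, with differences between -0.14 and 0.11, and the 95% interval for the lead probe set ran from -0.18 to 0.21.

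Thy1 encodes a small membrane-anchored glycoprotein used to mark sublining fibroblasts, and Cd34 a sialomucin of sublining fibroblasts that endothelial cells also carry. Thy1 ran from -0.45 to 0.20 with a median of -0.06 in untreated knockout-labelled cultures, against 1.95, 1.60, 1.92, 1.89 and 1.72 in wild-type cultures. Cd34 ran from -0.65 to 0.21 with a median of -0.29 in the knockout-labelled cultures, and it was 2.29, 2.50, 2.61, 2.34 and 2.25 in the wild-type ones. Neither gene's ranges overlapped. The difference was -1.91 ± 0.13 for Thy1 (adjusted p = 2.49e-14), which turned to 0.14 under cyclic loess scaling of the centred values, and -2.64 ± 0.15 for Cd34 (adjusted p = 1.67e-16), which shrank to -0.29 under it. The same scaling left 2 Cd55 probe sets at -0.13 and -0.14 and 2 Vcam1 probe sets at 0.70 and 0.35, none of which passed. It works along the mean value of each probe set, which in centred values is no measure of brightness. With the median at 0 that mean itself depends on the genotype difference, so the scaling takes out part of large differences. It left 35 probe sets below -2, against 408 as deposited, and cannot decide whether such a difference holds.

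The genotypes also differed in markers of endothelium, the vessel lining. 9 of its 10 markers were lower in untreated knockout-labelled cultures and 0 were higher, with a median of -5.09, while under cyclic loess 5 were lower, 0 higher and the median was -0.49. The examples with the smallest adjusted p were Tie1 and Tek, receptors of the angiopoietin system, at -5.42 and -3.51, the junction gene Cldn5 at -3.69 and Egfl7 at -5.20. Under cyclic loess Cldn5 passed at -0.78, Tie1 and Egfl7 did not pass at -0.20 and -0.19, and Tek turned to 0.01. Since that scaling takes out part of large genotype differences, these values do not decide whether the differences hold. The mean centred value of the list lay between -0.51 and 0.29 over the knockout-labelled arrays of set a and between -1.48 and -1.23 over those of set b, which do not overlap, against 3.08 to 3.88 over the wild-type arrays. Cd34, Thy1 and Vcam1 are also known from vessel cells, and the part of endothelial RNA in their differences and in that of Cd55 was not tested. In bulk RNA, fewer cells of a type and less RNA per cell cannot be told apart. Prg4, Vcam1 and Icam1 differed in the direction opposite to these markers. The part of endothelial RNA in the values of Prg4 and Icam1 was not tested either. Of the other lists, 2 of 8 leukocyte markers and 1 of 6 mural markers were lower with none higher, 3 of 5 chondrocyte markers were higher with none lower, and fibroblast markers were mixed, with 4 higher and 3 lower of 10. The chondrocyte markers called were Comp at 4.42, Sox9 at 1.55 and Col2a1 at 1.44, with a list median of 1.44. Under cyclic loess 1 of the 5 was higher, Sox9 at 0.87, Comp and Col2a1 did not pass at 0.18 and 0.11, and the list median was 0.15. That scaling gave 3 leukocyte markers lower, 0 mural markers called, and 2 fibroblast markers higher and 3 lower. The mean of the chondrocyte list lay between -0.08 and 0.65 over the knockout-labelled arrays and between -1.65 and -1.06 over the wild-type arrays. Prg4 is also a gene of superficial chondrocytes, and the part of such cells in its difference was not tested.

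Vcam1 and Icam1 encode the immunoglobulin-family ligands of integrins on leukocytes. Icam1 ran from -0.05 to 0.36 with a median of 0.11 in untreated knockout-labelled cultures, against -0.79, -0.94, -0.82, -1.37 and -1.36 in wild-type cultures. The ranges did not overlap, and the difference was 1.20 ± 0.11, or 2.29-fold (adjusted p = 7.73e-11). The lead Vcam1 probe set 1415989_at ran from -0.81 to 0.92 with a median of 0.16 in knockout-labelled cultures and, in wild-type ones, from -1.44 to -0.97 in the 3 cultures of set a, with -2.45 and -2.52 in set b. Vcam1 was also higher without overlap, but one knockout-labelled culture at -0.81 came close to the wild-type set a. The 3 probe sets differed by 1.85 ± 0.34, 2.03 ± 0.24 and 1.89 ± 0.25, with adjusted p of 3.08e-05, 1.26e-08 and 8.16e-08. Among wild-type arrays, set b minus set a was -1.49 to -1.12 for the 3 Vcam1 probe sets, -0.88 for Prg4 and -0.47 for Icam1. The genotype differences were of like size with the set as a random block, at 4.46 ± 0.17 for Prg4, 1.93 ± 0.32 for the lead Vcam1 probe set and 1.22 ± 0.11 for Icam1.

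**Figure D1:**
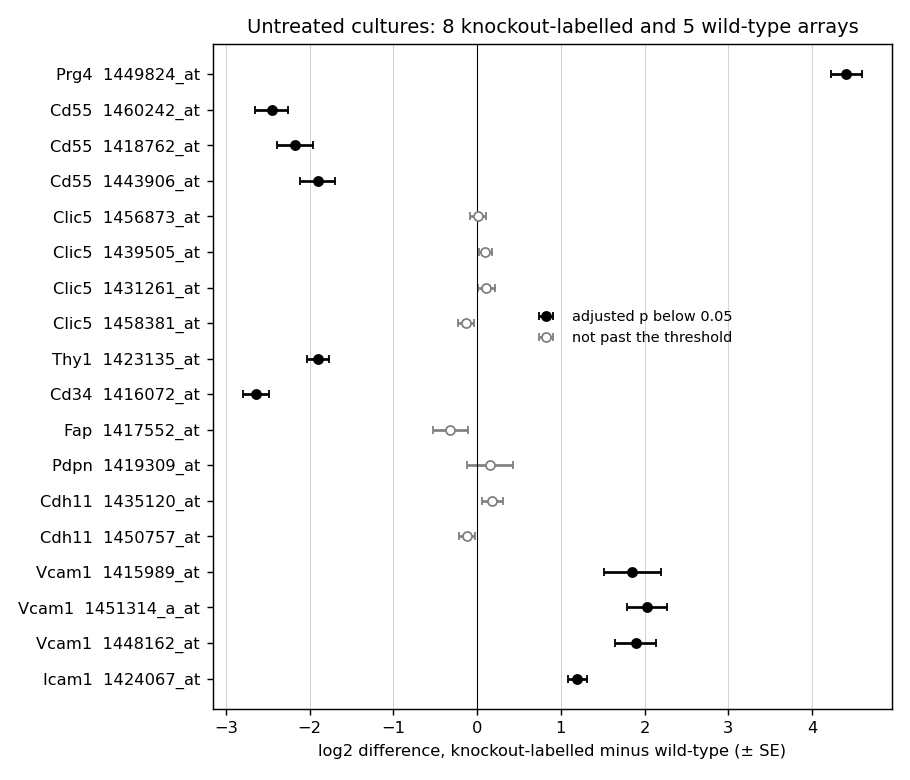
Differences between 8 knockout-labelled and 5 wild-type untreated cultures for the 18 probe sets of the 10 genes, on the horizontal axis as log2 differences (knockout-labelled minus wild-type) with bars of 1 SE from limma, and filled points for adjusted p below 0.05. Prg4 stands at 4.41 and the 3 Vcam1 probe sets near 2, Cd55, Thy1 and Cd34 stand between -2.64 and -1.91, and Clic5, Fap, Pdpn and Cdh11 are open points around 0. Under cyclic loess scaling Thy1 turned to 0.14, and Cd34 and the lead Cd55 probe set shrank to -0.29 and -0.13, none of them passing.

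The remaining genes did not separate the untreated genotypes. Fap, a serine protease of activated fibroblasts that lies on the same chromosome as Tnfaip6 at a distance of 10.4 Mb (GRCm38), differed by -0.32 ± 0.21, with a 95% interval from -0.75 to 0.11. The knockout-labelled cultures lay at 0.08 to 0.41, between the wild-type array sets, which read 1.21, 0.98 and 0.71 in set a and -0.03 and -0.04 in set b. Pdpn, a mucin-like glycoprotein of migrating fibroblasts, differed by 0.16 ± 0.27, with a wide 95% interval from -0.40 to 0.71. Cdh11, the cadherin that joins lining fibroblasts to each other, differed by 0.18 ± 0.12 and -0.12 ± 0.10 in its probe sets.

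In treated cultures the genotype differences had the same directions. The difference ran from -2.83 to -1.49 for Cd55 over its 3 probe sets and 5 treatments, from -2.04 to -1.78 for Thy1 and from -2.79 to -2.24 for Cd34, and each of these comparisons passed the threshold (cyclic loess, under which Thy1 turned round in untreated cultures, was not run on them). Icam1 was higher by 0.68 to 1.43 and passed in all 5. Vcam1 was higher in each as well, but its lead probe set passed only with HA (1.59, adjusted p = 0.0243), while probe set 1451314_a_at passed in all 5. With TNFa the Vcam1 differences were the smallest of the 5, at 0.64 to 1.09, and Clic5 was higher in knockout-labelled cultures by 0.74 and 0.79 at 2 probe sets.

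**Figure D2:**
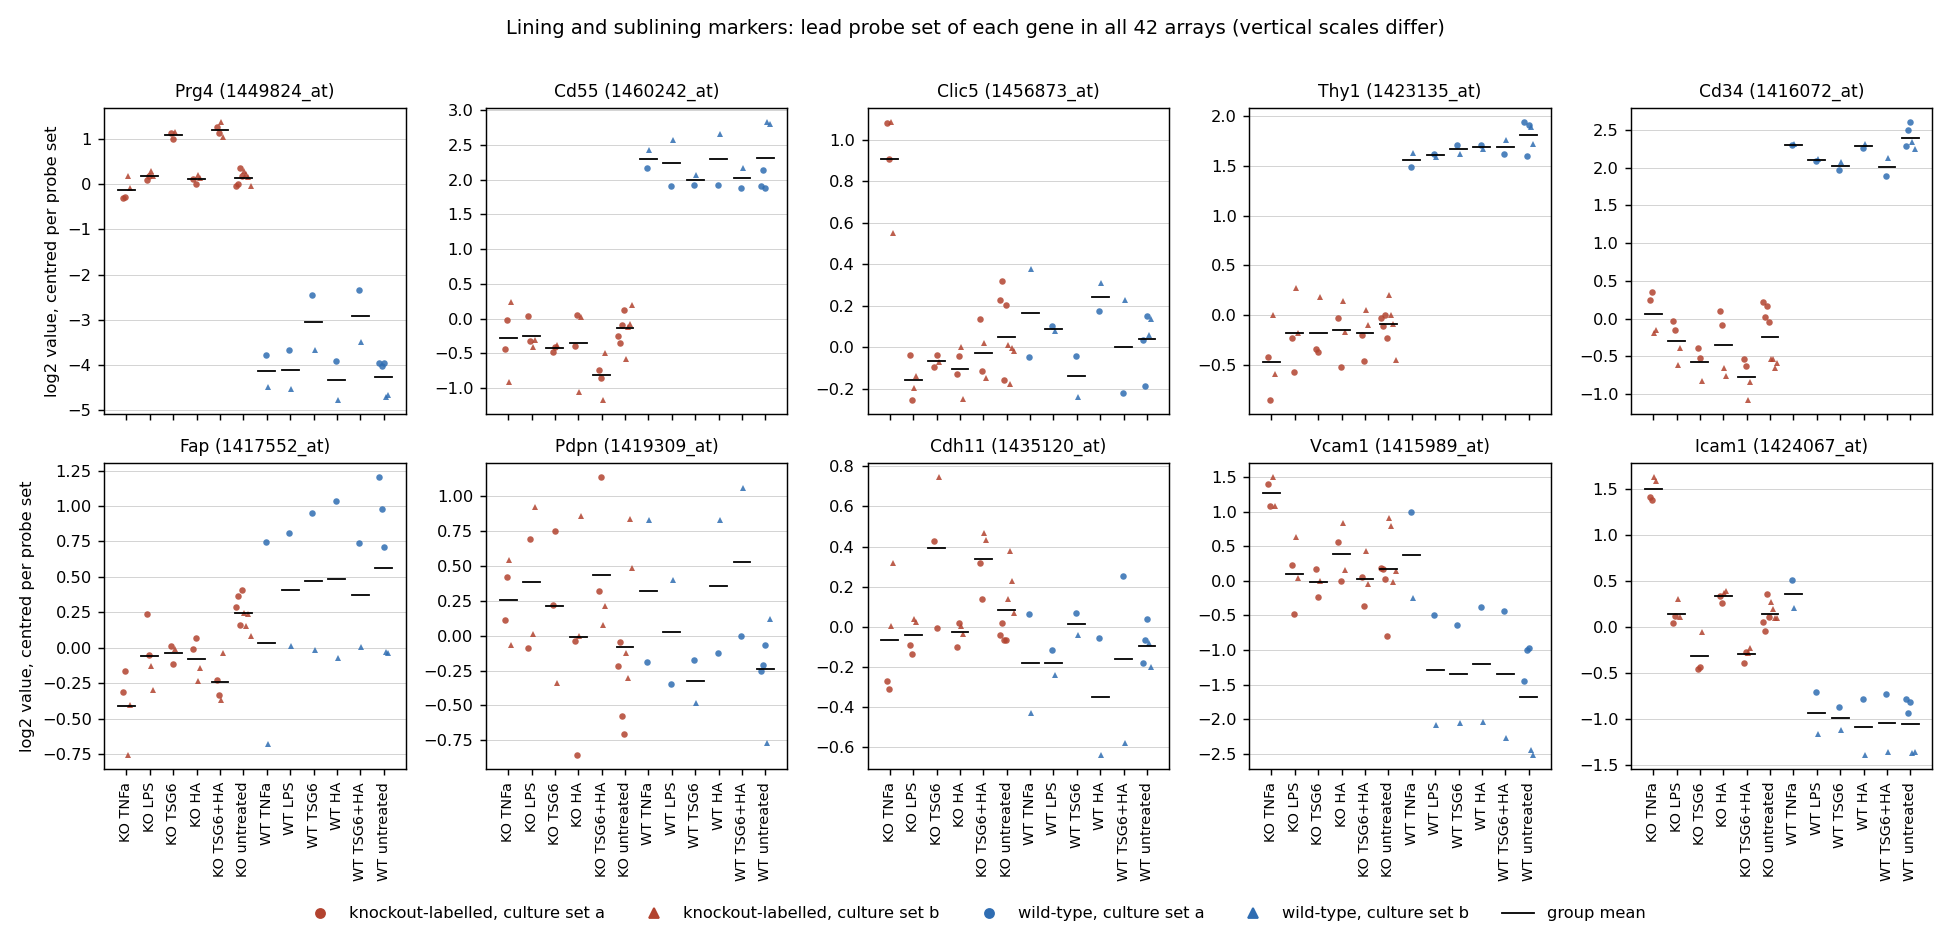
Centred log2 value of the lead probe set of each gene on all 42 arrays, with 1 point per array, a circle or triangle for array set a or b, a line for the group mean, and vertical scales that differ between genes. Prg4, Cd55, Thy1 and Cd34 split by genotype in every condition, Icam1 and Vcam1 stand highest with TNFa in both genotypes, and Clic5 rises with TNFa in knockout-labelled cultures. Under cyclic loess scaling, read for the untreated genotypes only, the difference was 0.14 for Thy1, -0.29 for Cd34 and -0.13 for Cd55. None of these passed the threshold.

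TNFa, the inflammatory cytokine whose receptors act on NF-kB, raised both adhesion molecules in both genotypes. Icam1 read 1.42, 1.38, 1.63 and 1.58 in the 4 knockout-labelled cultures with TNFa, against -0.05 to 0.36 in untreated ones. It read 0.51 and 0.20 in the wild-type cultures with TNFa, against -1.37 to -0.79 in untreated ones. Neither comparison overlapped, and the rises were close to equal in size, at 1.36 ± 0.12 or 2.57-fold in knockout-labelled cultures (adjusted p = 1.37e-10) and 1.41 ± 0.17 or 2.67-fold in wild-type cultures (adjusted p = 4.53e-07). The difference between these responses was -0.05 ± 0.21, with a 95% interval from -0.47 to 0.37. Treated wild-type cultures thereby lay near the untreated knockout-labelled ones.

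For Vcam1, TNFa gave 1.40, 1.08, 1.50 and 1.08 at the lead probe set in knockout-labelled cultures, against -0.81 to 0.92 untreated. In wild-type cultures it gave 0.99 in set a and -0.25 in set b, against -2.52 to -0.97 untreated. Both genotypes rose without overlap. The 3 probe sets rose by 1.09 ± 0.36, 1.12 ± 0.26 and 0.81 ± 0.26 in knockout-labelled cultures (adjusted p = 0.0430, 0.00236 and 0.0379) and by 2.04 ± 0.50, 2.05 ± 0.35 and 2.06 ± 0.36 in wild-type cultures (adjusted p = 0.0163, 2.77e-04 and 3.65e-04). The wild-type rise was larger at each probe set, but the difference of the responses passed at none, with -0.95 ± 0.62, -0.94 ± 0.44 and -1.25 ± 0.45 and adjusted p of at least 0.356. With the array set as a block 1451314_a_at and 1448162_at passed, at -1.05 ± 0.19 and -1.37 ± 0.16 (adjusted p = 0.00131 and 7.51e-07). The calls of 1415989_at and 1448162_at in knockout-labelled cultures were lost in 11 of 20 and 9 of 19 alternative settings run. Without TNFa replicate 3 they gave 1.01 and 0.78 with adjusted p of 0.128 and 0.103. Leaving out TNFa replicate 1 in wild-type cultures brought the 3 probe sets to 1.42, 1.50 and 1.71 with adjusted p of 0.353, 0.0836 and 0.0542. That sets a single array of set b against untreated cultures of both sets, and within the sets the rises were 2.13, 2.21 and 1.98 in set a and 2.23, 2.09 and 2.36 in set b.

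Clic5 also rose with TNFa in knockout-labelled cultures. Its lead probe set 1456873_at read 1.08, 0.91, 1.09 and 0.55, against -0.18 to 0.32 in untreated cultures, and 1439505_at read 0.47, 0.59, 0.51 and 0.80, against -0.13 to 0.32. These groups did not overlap, and the rises were 0.86 ± 0.10 and 0.54 ± 0.08 (adjusted p = 1.01e-07 and 1.23e-05), or 1.81-fold and 1.45-fold. Probe set 1458381_at rose by 0.38 ± 0.10 (adjusted p = 0.0122), a call lost without TNFa replicate 1 (0.29, adjusted p = 0.107) or replicate 3 (0.32, adjusted p = 0.0779), and 1431261_at gave 0.32 ± 0.11 (adjusted p = 0.0553).

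In wild-type cultures with TNFa, Clic5 read -0.05 and 0.38 at the lead probe set and -0.23 and -0.16 at 1439505_at, where untreated cultures spanned -0.19 to 0.15 and -0.15 to 0.18. No Clic5 probe set passed there. The response differed between the genotypes by 0.73 ± 0.17 at the lead probe set and 0.69 ± 0.14 at 1439505_at (adjusted p = 0.0365 and 0.0103), while the other 2 gave 0.26 ± 0.19 and 0.33 ± 0.18 without passing. These differences rest on 2 wild-type arrays, and the calls were lost in 15 of 27 and 5 of 26 alternative settings run. In a fit of the compared groups alone the adjusted p was 0.175 and 0.0686. Without the arrays high in 18S the difference at 1439505_at was 0.53. That setting drops wild-type TNFa replicate 2, of set b, and leaves replicate 1 alone in its group. With the array set as a block both passed, at 0.74 ± 0.16 and 0.69 ± 0.14 (adjusted p = 0.00908 and 0.00381). Without wild-type TNFa replicate 1 they were 0.52 and 0.65 with adjusted p of 0.384 and 0.0867, and without replicate 2 that of 1439505_at was 0.73 with adjusted p of 0.0817. The 4 probe sets followed each other less closely than those of Cd55, with r from 0.23 to 0.62 over the arrays.

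Read against the whole array, TNFa called 7 member probe sets in knockout-labelled cultures, all higher, where it called 12.5% of all probe sets, 5.89% as higher. In wild-type cultures it called 4, all higher, against 2.07% of all and 1.09% as higher. The test of the difference called 2, both of Clic5 and both higher, against 0.601% of all and 0.398% as higher. Fap with TNFa read -0.31, -0.17, -0.76 and -0.40 in knockout-labelled cultures, below every untreated value (0.08 to 0.41), yet the fitted difference of -0.65 ± 0.23 did not pass (adjusted p = 0.0533). With the array set as a block the same difference had an SE of 0.10 and passed (adjusted p = 3.59e-06). Thy1 gave -0.38 ± 0.14 (adjusted p = 0.0746), and Prg4, Cd55, Cd34, Pdpn and Cdh11 did not pass. Under that block 12 of the 18 passed, against 16.8% of all probe sets under the same block, the others added being Prg4 at -0.26 (adjusted p = 0.0308), Thy1, Cd34 and Clic5 1431261_at.

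**Figure D3:**
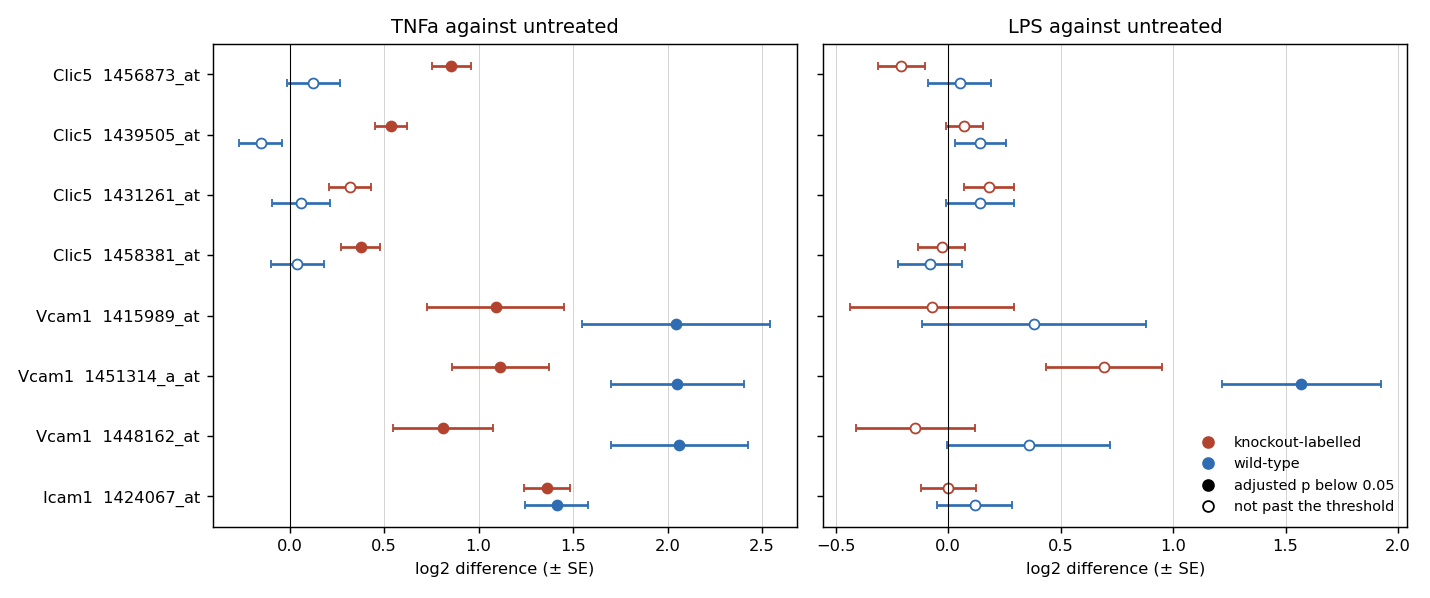
Log2 differences of treated against untreated cultures for the 8 probe sets of Clic5, Vcam1 and Icam1, with TNFa on the left and LPS on the right, knockout-labelled cultures above wild-type cultures in each pair, bars of 1 SE from limma and filled points for adjusted p below 0.05. With TNFa, Icam1 stands at 1.36 and 1.41 in the genotypes and Clic5 is called only in knockout-labelled cultures. With LPS the only filled point is Vcam1 1451314_a_at in wild-type cultures at 1.57.

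LPS, at the dose used, gave a single call among these genes. Icam1 read 0.05, 0.12, 0.30 and 0.10 in knockout-labelled cultures with LPS, against -0.05 to 0.36 untreated, and -0.71 and -1.17 in wild-type cultures, against -1.37 to -0.79 untreated. Both ranges overlapped, with differences of 0.00 ± 0.12 and 0.12 ± 0.17. In knockout-labelled cultures LPS called 0 of the 18 probe sets in limma, and 1 had an unadjusted p under 0.05, against 1.38% of all probe sets called. In wild-type cultures it called 1, which was higher, against 0.938% of all and 0.549% as higher. Set directly against LPS in knockout-labelled cultures, TNFa gave higher Icam1 by 1.36 ± 0.14 (adjusted p = 1.63e-08) and higher Clic5 by 1.06 ± 0.12 at the lead probe set and 0.46 ± 0.10 at 1439505_at (adjusted p = 7.58e-08 and 0.00236). That comparison called 3 of the 18 probe sets, all higher with TNFa, against 2.92% of all and 2.03% as higher.

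The call with LPS in wild-type cultures was Vcam1 1451314_a_at, an "_a_at" probe set, which on this kind of array matches several transcript forms of a gene. It read 0.21 and -0.95 with LPS, against -2.59 to -1.40 untreated, a rise of 1.57 ± 0.35 (adjusted p = 0.0149). Within the sets the rise was 1.76 in set a and 1.58 in set b. Without LPS replicate 1, the only LPS array of set a, the rise was 0.99 and did not pass (adjusted p = 0.934). In knockout-labelled cultures the same probe set read 0.92, 0.74, 0.85 and 0.60 with LPS, against -0.44 to 0.53 untreated. These groups did not overlap, but the difference of 0.69 ± 0.26 did not pass (adjusted p = 0.280). With the array set as a block it passed, with an SE of 0.11 (adjusted p = 1.28e-04).

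The other 2 Vcam1 probe sets did not move with it. They gave -0.07 ± 0.36 and -0.15 ± 0.26 in knockout-labelled cultures and 0.38 ± 0.50 and 0.36 ± 0.36 in wild-type cultures. The gap between 1451314_a_at and the mean of the other 2, a measure chosen after the values had been seen, was 0.79, 1.06, 0.43 and 0.55 with LPS in knockout-labelled cultures, against -0.24 to 0.13 untreated. It was 0.82 and 1.09 with LPS in wild-type cultures, against -0.42 to -0.03 untreated. The groups were apart in both genotypes, by 0.80 in knockout-labelled and 1.20 in wild-type cultures. With TNFa, where all 3 probe sets rose, the gap averaged 0.07 ± 0.25 (SD, n = 4), against -0.09 ± 0.14 untreated (SD, n = 8), in knockout-labelled cultures, and it was -0.25 on average with and without TNFa in wild-type ones. Since the gap was chosen for this pattern, these values are a description with no test.

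TSG-6 protein raised Prg4, alone and together with HA. In knockout-labelled cultures Prg4 read 1.13, 1.01 and 1.17 with TSG-6 and 1.26, 1.14, 1.39 and 1.06 with TSG-6 plus HA, against -0.05 to 0.35 untreated. In wild-type cultures it read -2.45 and -3.67 with TSG-6 and -2.35 and -3.49 with both, against -4.71 to -3.95 untreated. All treated cultures lay above all untreated ones of their genotype, though wild-type replicate 2 with TSG-6 stood close to the highest untreated one.

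The rises with TSG-6 were 0.96 ± 0.22 or 1.94-fold in knockout-labelled cultures (adjusted p = 0.00636) and 1.21 ± 0.27 or 2.31-fold in wild-type cultures (adjusted p = 0.0355). With TSG-6 plus HA they were 1.07 ± 0.20 or 2.10-fold (adjusted p = 3.39e-04) and 1.34 ± 0.27 or 2.54-fold (adjusted p = 0.00671). The same step thus appeared in a genotype whose untreated Prg4 values are much lower, and it was present within each array set. TSG-6 gave 0.94 and 1.01 within the knockout-labelled sets a and b, against 1.53 and 1.02 within the wild-type ones. With the set as a block the SE fell to 0.10 in knockout-labelled and 0.12 in wild-type cultures, with differences of 0.98 and 1.29. The calls depend on single arrays all the same, and that of TSG-6 in wild-type cultures was lost in 5 of 15 alternative settings run. Without TSG-6 replicate 1 the rise was 0.94 in knockout-labelled cultures (adjusted p = 0.0528) and 0.60 in wild-type cultures (adjusted p = 1.000), and without replicate 1 of TSG-6 plus HA the wild-type rise was 0.77 (adjusted p = 0.227). In wild-type cultures these settings leave 1 array of set b against untreated cultures of both sets.

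**Figure D4:**
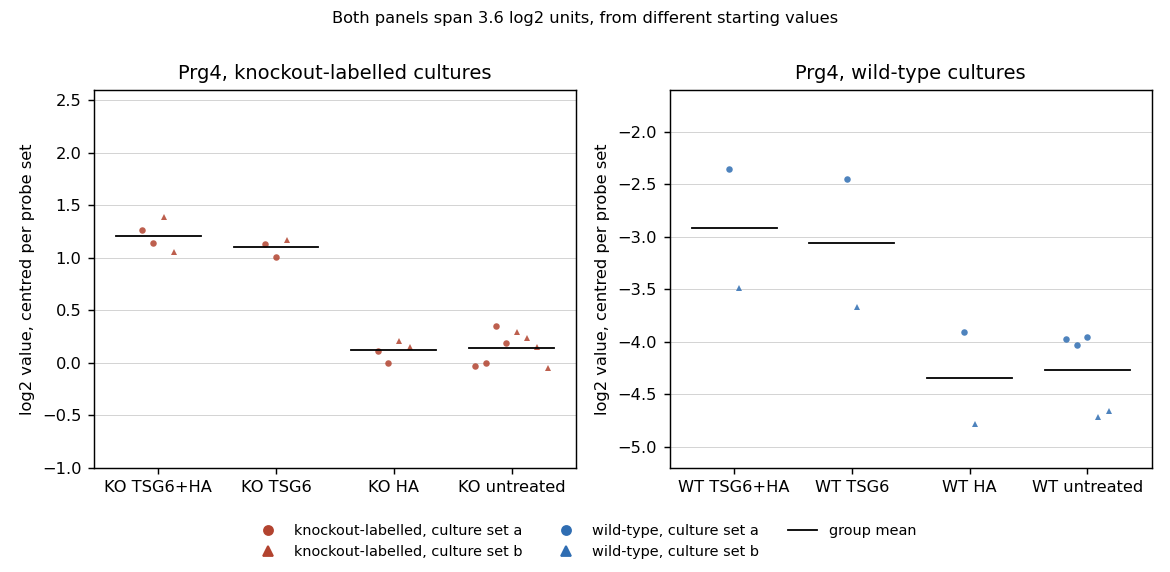
Centred log2 value of Prg4 with TSG-6 plus HA, TSG-6, HA and no treatment, with 1 point per array, a circle or triangle for array set a or b and a line for the group mean, in knockout-labelled cultures on the left and wild-type cultures on the right. Both panels span the same number of log2 units from different starting values. TSG-6 with or without HA stands above the untreated cultures in both genotypes, and HA alone stands among them.

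HA alone called none of the 18 probe sets in either genotype in limma, and none had an unadjusted p under 0.05, where it called 0.4% of all probe sets in knockout-labelled cultures and 0.0887% in wild-type ones. Prg4 with HA read 0.11, 0.21 and 0.15 in 3 knockout-labelled cultures and near 0 in the other, and -3.91 and -4.78 in wild-type cultures, within or next to the untreated ranges. TSG-6 plus HA was higher than HA alone for Prg4 in knockout-labelled cultures by 1.09 ± 0.23 (adjusted p = 0.00597), and Icam1 differed by -0.63 ± 0.14 (adjusted p = 0.0114). These were 1 higher and 1 lower of the 18, against 1.52% of all, 0.564% as higher and 0.955% as lower. In wild-type cultures this comparison called 0 of the 18 in limma with 1 at an unadjusted p under 0.05, against 0.00286% of all. TSG-6 plus HA did not differ from TSG-6 alone for any of the 18 probe sets in either genotype, with 0 called in limma and 0 at an unadjusted p under 0.05, against 0% of all probe sets in both. For Prg4 that difference was 0.11 ± 0.25 in knockout-labelled and 0.14 ± 0.32 in wild-type cultures.

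Alongside Prg4, Icam1 fell with TSG-6 in knockout-labelled cultures. It read -0.46, -0.44 and -0.06 with TSG-6 and -0.39, -0.28, -0.28 and -0.23 with TSG-6 plus HA, against -0.05 to 0.36 untreated. The TSG-6 groups lay below the untreated one without overlap, at -0.46 ± 0.14 (adjusted p = 0.0425) and -0.44 ± 0.12 (adjusted p = 0.0184). The first call was lost in 9 of 19 alternative settings run, namely without TSG-6 replicate 1 (-0.39, adjusted p = 0.274) or replicate 2 (-0.40, adjusted p = 0.243), without the arrays high in 18S (-0.42, adjusted p = 0.189) and without any 1 of untreated replicates 3 to 8. The second was lost in 3 of 20, namely without replicate 1 of the combined treatment (-0.40, adjusted p = 0.0808), without the arrays high in 18S (-0.49, adjusted p = 0.0573) and under cyclic loess (-0.30, adjusted p = 0.0520). In wild-type cultures Icam1 read -0.87 and -1.12 with TSG-6, among the untreated values of -1.37 to -0.79. With TSG-6 plus HA it read -1.36, within that range, and -0.73, just above it. The difference of the Icam1 responses did not pass, but it did with the array set as a block, at -0.55 ± 0.12 for TSG-6 (adjusted p = 0.0366) and -0.49 ± 0.12 for TSG-6 plus HA (adjusted p = 0.0323).

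TSG-6 plus HA also lowered Cd34 and, by 1 probe set each, Cd55 and Clic5 in knockout-labelled cultures. Cd34 read -0.54, -0.63, -1.08 and -0.84, against -0.65 to 0.21 untreated, a fall of 0.53 ± 0.16 (adjusted p = 0.0356). Untreated Cd34 split by array set, with 0.09 in set a and -0.58 in set b on average, so the ranges overlapped across sets. The endothelial list split the same way over all knockout-labelled arrays, with a median of -0.07 in set a and -1.32 in set b, and its part in the Cd34 values was not tested. Cd55 1460242_at fell by 0.67 ± 0.21 (adjusted p = 0.0363), with -0.73, -0.86, -1.17 and -0.49 against -0.58 to 0.20, and its other probe sets gave -0.56 and -0.57 without passing. Clic5 1439505_at fell by 0.26 ± 0.08 (adjusted p = 0.0426), while its lead probe set gave no call.

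These calls for Cd34, Cd55 and Clic5 were lost in 8 of 20, 9 of 20 and 10 of 19 alternative settings run. Without replicate 3 of the combined treatment they became -0.43, -0.55 and -0.24 with adjusted p of 0.170, 0.163 and 0.137. In all, TSG-6 plus HA called 1 higher and 4 lower of the 18 probe sets in knockout-labelled cultures, against 8.6% of all, 3.06% as higher and 5.53% as lower. TSG-6 alone called 1 higher and 1 lower, against 4.38% of all, 2.06% as higher and 2.31% as lower. In wild-type cultures Prg4 was the single call with each, against 0.584% of all probe sets with TSG-6 plus HA (0.266% as higher) and 0.283% with TSG-6 (0.183% as higher). No difference between the genotypes in the response to LPS, TSG-6, HA or TSG-6 plus HA passed for any of the 18, where these 4 tests called 0.123%, 0.0286%, 0.0114% and 0.109% of all probe sets. At an unadjusted p under 0.05 they held 0, 1, 1 and 1. With the array set as a block the tests for LPS, TSG-6 and TSG-6 plus HA gave 1, 1 and 2 calls, all lower, against 0.375%, 0.269% and 0.781% of all probe sets. Beside the Icam1 calls given above these were Vcam1 1451314_a_at, at -0.99 ± 0.19 for LPS (adjusted p = 0.00558) and -0.89 ± 0.19 for TSG-6 plus HA (adjusted p = 0.0157).

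In knockout-labelled cultures the Fap values with TSG-6 (-0.12 to 0.02), HA (-0.24 to 0.07) and TSG-6 plus HA (-0.37 to -0.04) all lay below the lowest untreated value of 0.08, as with TNFa. None of these differences passed, at -0.28 ± 0.25, -0.32 ± 0.23 and -0.48 ± 0.23, in a fit whose estimate of the spread includes the wild-type arrays, which lay at 0.71 to 1.21 in set a and -0.68 to 0.01 in set b. With the set as a block TSG-6 plus HA passed (adjusted p = 4.92e-04). The treated wild-type arrays alone were split likewise, at 0.74 to 1.04 and -0.68 to 0.01.

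Pdpn moved with the 18S ribosomal RNA signal, and no comparison of genotype or treatment passed for it. Its centred value had a median of 0.75 on the 15 arrays with a high 18S signal (from -0.07 to 1.14) and -0.12 on the other 27 (from -0.86 to 0.54). Both probe sets were read on the same arrays and so share hybridisation and array set. Over the 42 arrays Pearson r was 0.80 and Spearman rho 0.64, and r was 0.76 without the 2 arrays farthest from the 18S median. It was 0.76 among the 27 knockout-labelled and 0.87 among the 15 wild-type arrays. All 5 wild-type arrays with a high 18S signal were in set b, where Pdpn averaged 0.28, against -0.17 in set a. The part of the 18S signal in the Pdpn values was not tested, and Pdpn has no further probe set on the array.

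**Figure D5:**
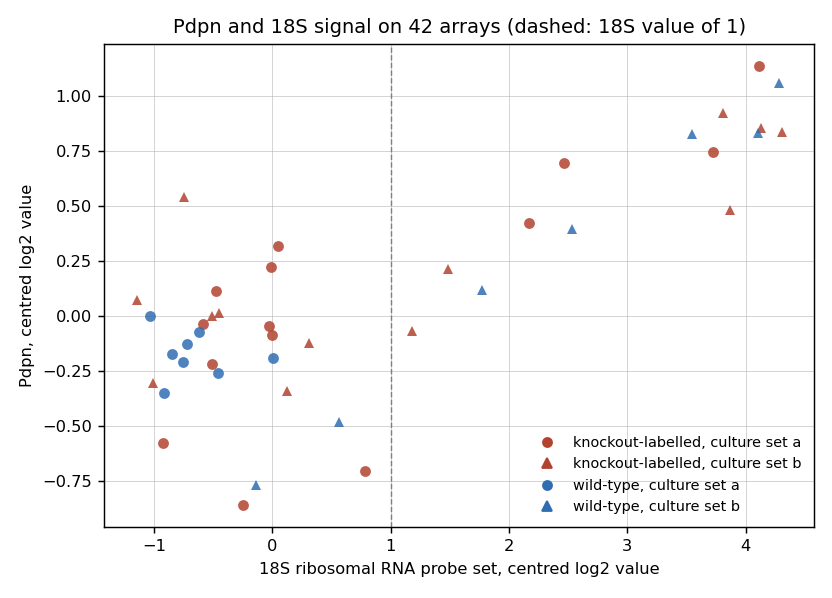
Centred log2 value of Pdpn against that of the 18S ribosomal RNA probe set on the 42 arrays, with 1 point per array, colour for genotype, a circle or triangle for array set a or b, and a dashed line at the 18S value of 1 used to call it high. The 15 arrays to the right of the line have a median Pdpn of 0.75 and the other 27 a median of -0.12.

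Cdh11 passed in no comparison. The largest values of its lead probe set 1435120_at were seen with TSG-6 (0.39 ± 0.38, SD, n = 3) and TSG-6 plus HA (0.34 ± 0.15, SD, n = 4) in knockout-labelled cultures, against 0.08 ± 0.16 untreated (SD, n = 8). Its second probe set gave 0.14 ± 0.31 and 0.09 ± 0.12, against -0.04 ± 0.18. These groups overlap in both probe sets.

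The order of the group means followed genotype first for 4 genes. For Prg4 all 6 knockout-labelled groups, from TNFa at -0.12 ± 0.23 (SD, n = 4) to TSG-6 plus HA at 1.21 ± 0.14 (SD, n = 4), stood above all 6 wild-type groups, from HA at -4.35 ± 0.62 to TSG-6 plus HA at -2.92 ± 0.81 (SD, n = 2 each). In knockout-labelled cultures HA, untreated and LPS were neighbours at 0.12 ± 0.09, 0.14 ± 0.15 and 0.19 ± 0.08, within their spread. For Cd55, Thy1 and Cd34 the order was turned in the values as deposited. Their knockout-labelled groups lay between -0.81 and -0.14, -0.47 and -0.09, and -0.77 and 0.06. All were below the wild-type groups at 1.99 to 2.31, 1.57 to 1.82, and 2.02 to 2.40. The order under cyclic loess was not examined, and the untreated differences there were -0.13, 0.14 and -0.29. Icam1 was ordered by both. Its means were highest with TNFa in knockout-labelled cultures (1.50 ± 0.12), followed by TNFa in wild-type cultures (0.36 ± 0.22) and HA in knockout-labelled cultures (0.34 ± 0.06), which did not differ beyond their spread. The lowest were the 5 other wild-type groups, between -1.09 and -0.94.

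Other genes of the same compartments did not all follow the 10. Of 8 other lining genes, 3 were higher and 2 lower in untreated knockout-labelled cultures, among them the matrix protease Mmp3 (2.47 ± 0.46, adjusted p = 3.48e-05), the integrin ligand Npnt (1.63 ± 0.23), the tetraspanin Cd9 (-0.41 ± 0.10) and the growth factor Hbegf (-0.66 ± 0.17). Under cyclic loess, which takes out part of large genotype differences, 0 were higher and 2 lower, Hbegf and Cd9. Mmp3 and Npnt did not pass at 0.08 and 0.42. Of 12 other sublining genes 10 were measured, and 6 were higher and 1 lower, with a list median of 1.18 against 0.02 over all probe sets. Dpp4, a surface peptidase related to Fap, was higher by 2.72 ± 0.24, Clec3b by 2.19 ± 0.20, the chemokine Cxcl12 by 1.79 ± 0.42 (-0.10 under cyclic loess) and Dkk3 by 0.78 ± 0.13. Among wild-type arrays, set b minus set a was -2.09 for Cxcl12, and -0.35, -0.30 and 0.01 for Clec3b, Dkk3 and Dpp4. For the lining genes it was -2.26 for Mmp3, and 0.49, 0.32 and 0.43 for Npnt, Cd9 and Hbegf. As deposited, these sublining genes differed in the direction opposite to Thy1 and Cd34, and under cyclic loess 3 of the list were higher and 1 lower. The mean centred value of this list ran from -0.24 to 0.64 over the knockout-labelled arrays, against -0.38 to -0.18 in set a and -1.46 to -1.24 in set b of the wild-type arrays.

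Among 16 other adhesion molecules and integrin partners, 0 were higher and 9 lower in untreated knockout-labelled cultures, opposite to Vcam1 and Icam1, and under cyclic loess 1 was higher and 5 lower. The selectins Selp and Sele, at -5.79 ± 0.26 and -2.39 ± 0.35, and Icam2, at -5.89 ± 0.33, are mainly known from endothelium. Under cyclic loess Selp and Sele turned to 0.97 and 0.72 and Icam2 was at -1.28. That scaling takes out part of large genotype differences, so the turned signs do not show a reversal. Mcam was at -0.98 ± 0.18 (-0.18 under cyclic loess, not passing). Of 3 measured other complement regulators, 1 was lower, Cd59a (-0.71 ± 0.11), in the same direction as Cd55, and under cyclic loess it did not pass (-0.32, adjusted p = 0.0699). Of the relatives of the members, Podxl of the Cd34 family differed by -2.41 ± 0.14 (0.19 under cyclic loess) and its relative Podxl2 by 2.03 ± 0.24 (0.69 under it).

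With TNFa in knockout-labelled cultures the adhesion list held 2 that rose and 2 that fell, namely the hyaluronan receptor Cd44 (1.53 ± 0.20) and the leukocyte integrin chain Itgb2 (0.61 ± 0.13), and the cadherin Cdh2 (-0.83 ± 0.14) and Ncam1 (-0.74 ± 0.17). The hyaluronan synthase Has1 of the lining list rose by 0.86 ± 0.15, and the sublining genes Dkk3, Dpp4 and Clec3b fell, with -1.37, -1.22 and -0.76. The chloride channel relative Clic4 rose by 0.94 ± 0.23 beside Clic5. In the same comparison 2 of 8 leukocyte markers rose, Cd14 by 1.06 ± 0.15 and Csf1r by 0.84 ± 0.17, and 1 of 5 chondrocyte, 1 of 6 mural and 2 of 10 fibroblast markers fell, which were Sox9 (-1.36), Cspg4 (-0.77), Vim (-0.40) and Fn1 (-0.61). The mean of the leukocyte list ran from -0.44 to 0.25 over the knockout-labelled arrays, against 0.06 to 0.45 over the wild-type arrays, and the part of such cells in the TNFa values was not tested. In wild-type cultures the endothelial marker Cldn5 fell with TNFa (-1.20), LPS (-2.40), HA (-1.24) and TSG-6 plus HA (-1.64). It was the only one of the 10 endothelial markers called in these comparisons. The selectin Selp rose with LPS by 1.64 in wild-type cultures, beside the single Vcam1 probe set called there. With TSG-6 and with TSG-6 plus HA in knockout-labelled cultures Ncam1 rose by 1.45 and 1.35, and Dpp4 fell, with -0.99 and -1.29, as did Clec3b (-0.85 and -0.87). Beside the rise of Prg4, the lining gene Tspan15 fell (-0.36 and -0.35), as the only one of 8 other lining genes called, and so did the chondrocyte marker Sox9 (-0.71 and -0.73), the only one of its list of 5. The leukocyte marker Csf1r rose by 0.70 with TSG-6 plus HA. In the same cultures the collagen genes Col3a1 and Col1a2 of the fibroblast list rose, by 1.17 and 1.36 and by 0.59 and 0.71. Col1a1 rose by 0.68 with TSG-6 plus HA. Vim of that list fell with both treatments (-0.32 and -0.29). The smooth muscle actin gene Acta2 rose by 1.13 and 0.96, as the only one of 6 mural markers called.

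The genes whose lead probe sets ran most like each of the 10 over the 42 arrays are given as a description. For Prg4 they were Mkx, Grb14 and F13a1 (Pearson r = 0.98, 0.98 and 0.97), for Cd55 Osbpl3, Clca3a1 and Ltc4s (0.97 each), for Thy1 Aqp1, Gzme and Clec14a (0.99, 0.97 and 0.97) and for Cd34 Cyb561, Procr and Scarf1 (0.98 each). These 4 genes are split by genotype, and so are their closest partners. Icam1 was closest to Tlr2, Ptges and Gbp2 (0.94, 0.94 and 0.93) and Vcam1 to Ptx3, Adm and Fmo1 (0.92, 0.92 and 0.91). Pdpn was closest to B4galt1, Slc39a1 and Klhl42 (0.92, 0.92 and 0.84). For Cdh11 (Slc2a13, Stk17b and Slc30a7, 0.83 to 0.78), Fap (Ehmt1, Lrrc17 and Ralgapa1, 0.80 to 0.78) and Clic5 (Ninj1, Kcnf1 and AU020206, 0.78 to 0.76) no gene came as near. All probe sets of an array share its array set and hybridisation, so such likeness does not separate treatment from these.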

How the data were processed

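RNA of 42 synovial fibroblast cultures was hybridised to Affymetrix mouse arrays, 1 culture an array. The deposited values are log2 expression made with RMA, per the submitters' processing notes, and the median over the arrays is 0 for every one of the 45101 probe sets, tested on the values. Background brightness, detection calls and array scan order were not used here. Groups came from the labels. Probe sets took their gene from the platform annotation, 34958 with 1 gene, 932 with several and 9211 with none, and 34754 of the first kind were matched by gene number.

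All 34958 were fitted with limma 3.58.1 in R 4.3.3 (lmFit and eBayes, 12 group means, residual df 30, prior df 4.41), with Benjamini-Hochberg adjustment within each comparison and a threshold of 0.05. The fit was tested on simulated data. Alternatives were 1 probe set per gene, a filter on the SD, cyclic loess, only the compared groups, leaving out arrays, and blocks for replicate number and array set. A gene's lead probe set has the largest SD, avoiding an r above 0.7 with 18S. Each list names at most the 4 called genes of smallest adjusted p, and likeness is the highest Pearson r among lead probe sets. Members and lists were chosen with earlier results of these data known.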

Additional observations from a re-analysis of the deposited data

Results flagged for a closer look

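The TNFa response of Clic5 differed between the genotypes, by 0.73 at probe set 1456873_at and 0.69 at 1439505_at on the log2 scale (knockout-labelled minus wild-type), in limma's test of the difference itself. The calls were lost in 15 of 27 and 5 of 26 alternative settings run, and rest on 2 wild-type arrays. With the replicate block the differences were 0.52 and 0.57 (adjusted p = 0.344 and 0.0985, limma). That block matches some treated arrays of set b to untreated arrays of set a. The lead probe set rose by 0.86 in knockout-labelled cultures and gave 0.13 in wild-type ones, and within the array sets the values were 0.85 and 0.86 against -0.05 and 0.28. In knockout-labelled cultures with TSG-6 plus HA, Cd55 1443906_at was -0.55 in replicate 4, far from the other 3 at -1.13 to -1.08. In knockout-labelled cultures with LPS, Clic5 1458381_at was 0.18 in replicate 1, while the other 3 lay between -0.14 and -0.13. These were the 2 cases among 108 groups of 4 to 8 arrays in which 1 array stood apart, where chance gives about 5% of groups.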

How the results depend on the processing

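Of 36 member results past the threshold, 12 stayed past it under every setting run, and 1 turned its sign. This was Thy1 between the untreated genotypes, at 0.14 under cyclic loess, a scaling that takes out part of large genotype differences. Counts of the 18 probe sets moved as follows. The share of all probe sets called can move with the setting too, so a moved count is no result about the 10 genes. With 1 probe set per gene, TNFa gave 4 in knockout-labelled cultures (7 as reported) and 2 in wild-type cultures (4), LPS in wild-type cultures gave 0 (1), the untreated genotypes gave 6 (10) and the difference of the TNFa response gave 1 (2). Cyclic loess gave 5 between the untreated genotypes and 2 with TSG-6 plus HA in knockout-labelled cultures (5). In fits of the compared groups alone, LPS gave 1 in knockout-labelled (0) and 0 in wild-type cultures (1), TSG-6 and TSG-6 plus HA in wild-type cultures gave 0 each (1 each), and the difference of the TNFa response gave 0. Leaving out the 15 arrays high in 18S, TSG-6 plus HA gave 1 in knockout-labelled cultures, TSG-6 gave 0 in wild-type cultures, and the difference of the TNFa response gave 1. The filter on the SD, and array medians set to 0, a setting chosen after seeing the data, moved no count by over 1.5 times.

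With the array set as a block, knockout-labelled cultures gave 12 with TNFa, 1 with LPS, 4 with TSG-6 (2) and 7 for TNFa against LPS (3), and wild-type cultures gave 2 with LPS, 1 with HA (0) and 2 with TSG-6 plus HA. The differences of the TNFa, LPS, TSG-6 and TSG-6 plus HA responses then gave 4, 1, 1 and 2. The share of all probe sets called rose under this block as well, from 12.5% to 16.8% with TNFa in knockout-labelled cultures. For the differences of the LPS, TSG-6 and TSG-6 plus HA responses it rose from 0.123%, 0.0286% and 0.109% to 0.375%, 0.269% and 0.781%. Leaving out 1 array at a time, the counts ran from 4 to 8 with TNFa, 0 to 2 with TSG-6, 2 to 4 with TSG-6 plus HA and 3 to 4 for TNFa against LPS in knockout-labelled cultures. In wild-type cultures they ran from 1 to 4 with TNFa and 0 to 1 with LPS, TSG-6 and TSG-6 plus HA each. They ran from 0 to 2 for the difference of the TNFa response and stayed at 10 between the untreated genotypes. Where 1 wild-type array was left in a group, its spread is assumed to be that of the other groups.

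The replicate numbers did not pair the cultures. Same-numbered cultures had r above 0.1 in 7 of 19 knockout-labelled pairs and 5 of 10 wild-type pairs, and a culture correlated best with its own number in 5 of 19 and 0 of 10. The numbers also cross the array sets. In wild-type cultures treated replicate 2 is in set b and untreated replicate 2 in set a. In knockout-labelled cultures treated replicates 3 and 4 are in set b and untreated replicates 3 and 4 in set a. The replicate block thus matches arrays of different sets. With it, LPS gave 2 and HA 1 in knockout-labelled cultures, and TNFa against LPS gave 7. TSG-6 plus HA in wild-type cultures gave 2 and the difference of the TNFa response gave 0. The cause of these moves was not tested. The precision is limited by 2 arrays in each treated wild-type group and by centred values, which show no signal over background.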
